A study of Mus musculus with 24 samples.

Results

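The testis-specific copies Rpl39l, Rpl10l, D1Pas1, Slc25a31, Taf7l and Pgk2 were described here in mouse embryonic stem cells (ESCs) that lack Tet proteins, beside the ubiquitous genes that they duplicate. They are 6 of the 22926 gene symbols in the count tables, and each has 1 line there. Rpl39l and D1Pas1 were chosen by their values in the comparisons of triple and double knockout cells with wild type. Their values in those knockouts are therefore given as a description with no test, and their other tests share the WT libraries with the comparisons that chose them. The remaining members belong to the same kind of gene.

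RNA-seq was available for 24 libraries, 12 from undifferentiated ESCs grown with leukemia inhibitory factor (LIF), the cytokine that holds mouse ESCs in the pluripotent state (D0), and 12 from cells kept for 6 days without it (D6). Every clone descends from 1 parental ESC clone of the Oct4-IRES-eGFP line, in which eGFP is knocked in at Pou5f1, and the WT clones carry that reporter too. At each day WT and Tet1-/- were represented by 3 clones, and Tet2-/-, the double knockout Tet1-/-:Tet2-/- (DKO) and the triple knockout Tet1-/-:Tet2-/-:Tet3-/- (TKO) by 2 clones, with 1 clone per library. The knockouts are small indels made by genome editing, so transcripts of the edited genes can persist. Sequenced at both days were the WT clones O4.1, O4.2 and O4.13, the Tet2-/- clones Tet2_KO_3.10 and Tet2_KO_3.11, the DKO clones DKO_5.11 and DKO_5.12 (labelled DKO_512 at D6) and the clones TKO_8.4 and TKO_8.12. Of Tet1-/-, Tet1_KO_2.1 and Tet1_KO_2.4 have a library from each day, Tet1_KO_2.3 has 1 from D0 and Tet1_KO_2.2 has 1 from D6. Clones of 1 genotype share a parental line, so p-values measure the spread between clones of that line.

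Tet proteins oxidize 5-methylcytosine, which opens a route to the loss of DNA methylation. Many germline genes have promoters that are kept methylated in somatic cells and only partly so in ESCs, and this class is known to respond to changes in DNA methylation. Several testis-specific copies arose by retroposition from X-linked genes, and they supply the function of the parent gene while the X chromosome is silenced in male meiosis. Rpl39l and Rpl10l encode large-subunit ribosomal proteins, D1Pas1 a DEAD-box RNA helicase, Slc25a31 a mitochondrial ADP/ATP carrier, Taf7l a TFIID-associated factor and Pgk2 the glycolytic enzyme phosphoglycerate kinase of sperm. Their counterparts are Rpl39, Rpl10, Ddx3x, Slc25a4 and Slc25a5, Taf7, and Pgk1.

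In the mm9 build, GENCODE vM1 places Rpl39l on chr16:10170321-10175004 (plus strand), with 3 exons in its longest coding transcript. Rpl10l lies on chr12:67384368-67385388 (minus strand), D1Pas1 on chr1:188791295-188794506 (plus strand) and Pgk2 on chr17:40343963-40345554 (minus strand), and each of these has 1 exon. Slc25a31 lies on chr3:40512777-40529515 (plus strand) with 6 exons, and Taf7l on chrX:130994657-131011029 (minus strand) with 13 exons. The counterparts Rpl39, Rpl10, Ddx3x, Slc25a5 and Pgk1 are X-linked, and of the copies only Taf7l is. Coding sequences of copy and counterpart were 85.3% identical for Rpl39l and Rpl39, 84.8% for Rpl10l and Rpl10, 86.9% for D1Pas1 and Ddx3x, and 79.3% for Pgk2 and Pgk1. Identity was lower for Slc25a31, at 61.3% with Slc25a4 and 61.4% with Slc25a5, and for Taf7l with Taf7 at 47.4%.

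The bases just before the transcription start show how much CpG, the site of DNA methylation, these genes offer. The windows below are the 250 bases before the RefSeq start, in build GRCm38.p6 and read 5′ to 3′ on the strand of the gene, with each CG in capitals. Those of Rpl39l (chr16:10169978-10170227, plus strand), Rpl10l (chr12:66284402-66284651, minus strand) and D1Pas1 (chr1:186967166-186967415, plus strand) are shown because these genes had the highest counts of the copies, and that of Pgk2 (chr17:40208610-40208859, minus strand) because Pgk2 was nearly absent.
Rpl39l: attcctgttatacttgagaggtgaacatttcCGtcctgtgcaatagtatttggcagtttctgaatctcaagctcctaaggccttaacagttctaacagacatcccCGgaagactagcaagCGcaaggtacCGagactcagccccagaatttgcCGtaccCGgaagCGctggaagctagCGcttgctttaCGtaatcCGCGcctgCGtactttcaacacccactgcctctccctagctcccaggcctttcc
Rpl10l: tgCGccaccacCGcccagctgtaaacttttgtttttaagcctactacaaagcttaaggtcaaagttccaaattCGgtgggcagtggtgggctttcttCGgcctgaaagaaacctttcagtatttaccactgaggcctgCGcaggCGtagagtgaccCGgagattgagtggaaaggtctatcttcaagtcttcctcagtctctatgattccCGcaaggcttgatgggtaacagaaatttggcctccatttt
D1Pas1: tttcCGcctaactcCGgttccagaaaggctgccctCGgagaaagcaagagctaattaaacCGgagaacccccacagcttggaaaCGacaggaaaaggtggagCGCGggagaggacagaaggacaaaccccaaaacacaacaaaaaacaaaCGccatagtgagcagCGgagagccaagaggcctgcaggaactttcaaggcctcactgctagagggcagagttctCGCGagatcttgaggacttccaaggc
Pgk2: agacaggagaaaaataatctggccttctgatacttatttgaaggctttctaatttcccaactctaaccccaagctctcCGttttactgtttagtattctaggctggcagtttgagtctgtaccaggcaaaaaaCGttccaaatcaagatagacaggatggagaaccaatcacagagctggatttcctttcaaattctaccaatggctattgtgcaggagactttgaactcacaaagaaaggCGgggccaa

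The windows held 12 CG dinucleotides for Rpl39l, 8 for Rpl10l, 11 for D1Pas1, 18 for Slc25a31, 14 for Taf7l and 3 for Pgk2. The median of 32851 RefSeq windows of the same length was 6. At least as many CG dinucleotides were found in 33.5% of all windows for Rpl39l, 43.0% for Rpl10l, 35.6% for D1Pas1, 21.7% for Slc25a31, 29.4% for Taf7l and 71.0% for Pgk2. The 5 copies with detected transcripts were thus above the median window and Pgk2 was below it. The E-box CACGTG, which reads the same on both strands, is the core sequence bound by MAX dimers, among them the MGA-MAX pair of a Polycomb complex known at germline genes. It was present in the windows of Slc25a31 and Taf7l and in 6.02% of all windows. The E2F-type sequence GGCGGGA, searched on both strands and counted apart from the E-box, was in none of the 6 windows of the copies (0 of 6), in those of Rpl39 and Rpl10, and in 9.75% of all windows.

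Libraries held 18400463 to 37290208 counts, and 3 counts, the limit that a count of 0 allows, corresponded to 0.0814 to 0.151 CPM (counts per 1000000 of the scaled library total). Markers of pluripotent cells summed to 5604 to 6333 CPM over 8 genes in every D0 library and to 835 to 2678 CPM at D6, and 10 spermatogenic markers summed to 1.21 to 3.73 CPM, with 4 to 8 of the 10 at 0. Pluripotent markers were thus high in the cells labelled as ESCs, and spermatogenic transcripts were low at both days. Among the targeted genes, Tet2 was lower at D0 in Tet2-/- (log2 fold change -2.08 ± 0.52 SE, adjusted p = 0.030) and in TKO (-1.86 ± 0.51 SE, adjusted p = 0.043). Tet2 in DKO (-1.25, adjusted p = 0.28) and Tet1 in Tet1-/- (-0.84, adjusted p = 0.67) did not pass. The TKO clones differed from each other, with Tet1 at 41.7 and 568 CPM.

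In undifferentiated WT cells 5 of the 6 copies were transcribed, and the 3 abundant ones are those of ribosomal proteins and of the helicase. Levels between genes were compared per kilobase of the longest coding transcript. The D0 WT clones held 123 to 182 CPM per kb of Rpl10l and 127 to 167 of Rpl39l, ranges that overlap, and 19.0 to 22.6 of D1Pas1, below both. Slc25a31, at 0.969 to 2.42 CPM per kb, and Taf7l, at 0.627 to 1.45, overlapped and lay lower still. Pgk2 was at 0 in every WT library. Per kb and clone, Rpl39l stood at 36.2% to 48.2% of Rpl39, Rpl10l at 16.9% to 25.2% of Rpl10 and D1Pas1 at 8.37% to 10.8% of Ddx3x. Such shares depend on how reads with several matches were treated, which the sources used here do not give. Of the 38-base windows of the transcript, 38 bases being the read length, 47.6% of Rpl39, 85.6% of Rpl10 and 93.6% of Pgk1 occur at 2 or more places in mm9, against 1.30% of Rpl39l, 37.5% of Rpl10l, 0.252% of D1Pas1 and 0 of Slc25a31, Taf7l and Pgk2. Reads shared with the counterpart itself were few: 0.130% of the windows of Rpl39l and 0.252% of those of D1Pas1 also occur in the transcript of the counterpart, and 0 of the others.

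**Figure D1:**
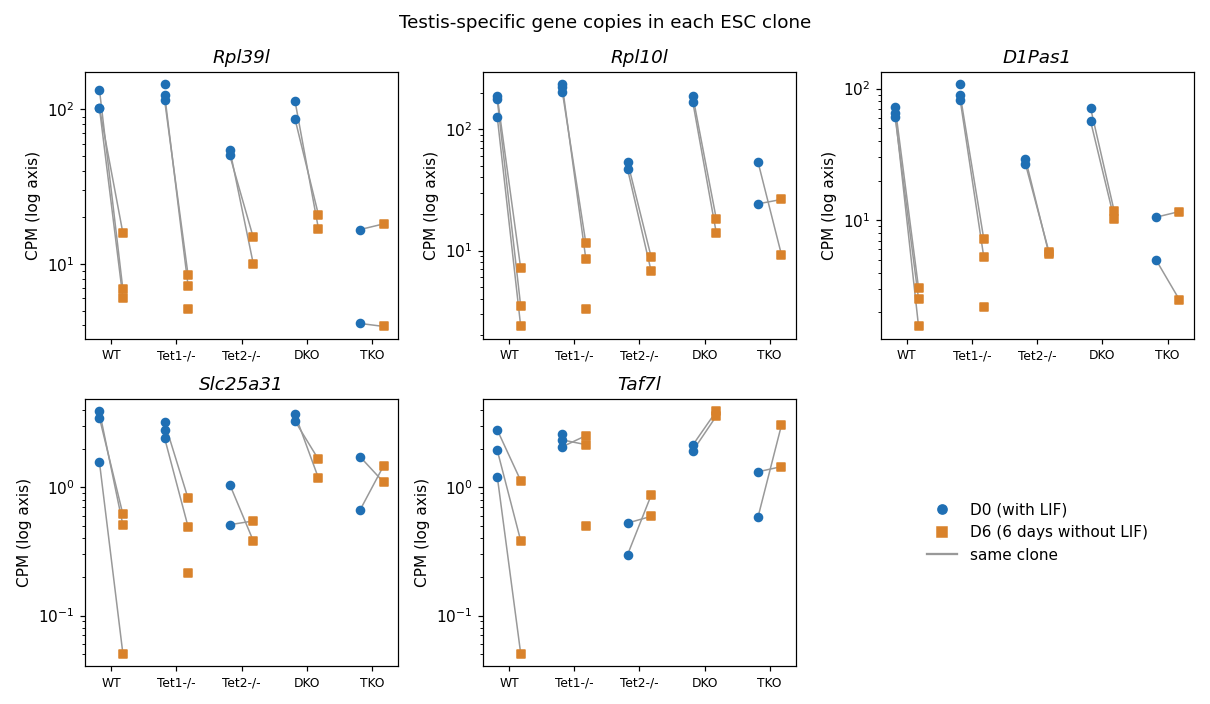
Expression of 5 testis-specific copies in CPM (vertical log axis) in each clone of WT, Tet1-/-, Tet2-/-, DKO and TKO at D0 (circles) and D6 (squares), with lines joining the same clone. At D0 the Tet2-/- and TKO clones lie below every WT clone for Rpl39l, Rpl10l and D1Pas1, and from D0 to D6 Rpl10l goes from 24.2 to 26.3 CPM in TKO_8.4 and from 53.7 to 9.24 CPM in TKO_8.12, against 2.37 to 7.11 CPM in the D6 WT clones, while at D6 Rpl39l in TKO_8.12 (3.94 CPM) lies below the WT clones (6.05 to 15.9 CPM) and in TKO_8.4 (18.2 CPM) above them.

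Rpl39l, a paralog of a ribosomal protein that lines the peptide exit tunnel, had the lowest TKO value relative to WT. At D0 it was at 102, 102 and 134.5 CPM in the WT clones O4.1, O4.2 and O4.13, at 115 to 146 CPM in Tet1-/-, at 54.9 and 50.5 CPM in Tet2-/- and at 114 and 86.9 CPM in DKO. In TKO it was at 16.7 CPM in clone TKO_8.4 and 4.12 CPM in clone TKO_8.12. Both TKO clones were below all other D0 libraries, and both Tet2-/- clones were below all WT, Tet1-/- and DKO clones. In bulk samples, fewer cells of a type and less RNA per cell cannot be told apart. The fitted TKO value was -3.44 on the log2 scale, -4.78 without clone TKO_8.4 and -2.76 without clone TKO_8.12, and the DKO value was -0.18. In Tet2-/- the log2 fold change was -1.12 ± 0.36 SE (adjusted p = 0.064), which did not pass. It passed with no filter on low counts (-1.11, adjusted p = 0.031) and without either TKO clone (-1.12 and adjusted p = 0.00022 without TKO_8.4, -1.12 and adjusted p = 0.00023 without TKO_8.12).

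Rpl10l, the retroposed copy of the X-linked Rpl10, fell in 2 genotypes. At D0 it was at 126, 186 and 175 CPM in WT clones O4.1, O4.2 and O4.13, at 200 to 235 CPM in Tet1-/- and at 187 and 167 CPM in DKO. It was at 46.6 and 53.4 CPM in Tet2-/- and at 24.2 and 53.7 CPM in TKO, with no overlap between these 4 clones and the other 8. The log2 fold change was -1.72 ± 0.27 SE in Tet2-/- (adjusted p = 0.0069) and -2.06 ± 0.27 SE in TKO (adjusted p = 0.0023). Those of Tet1-/- (0.41, adjusted p = 0.47) and DKO (0.11, adjusted p = 0.87) did not pass.

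D1Pas1, the autosomal copy of the helicase gene Ddx3x, was at 61.1, 72.7 and 65.7 CPM in WT clones O4.1, O4.2 and O4.13 at D0. It was at 81.1 to 108 CPM in Tet1-/-, 70.7 and 56.3 CPM in DKO, 29.2 and 26.7 CPM in Tet2-/-, and 10.5 and 5.03 CPM in clones TKO_8.4 and TKO_8.12. The order was that of Rpl39l, with TKO lowest and Tet2-/- next. Both genes were chosen by their TKO and DKO values, so the shared order is a description. The fold change in Tet2-/- was -1.27 ± 0.23 SE on the log2 scale (adjusted p = 0.011), and the TKO value, given without a test, was -3.10, or -3.73 without clone TKO_8.4.

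Slc25a31 and Taf7l, both in the list of germline genes under DNA methylation, were low throughout. At D0 Slc25a31 was at 1.57, 3.50 and 3.93 CPM in WT clones O4.1, O4.2 and O4.13, at 0.512 and 1.05 CPM in Tet2-/- (12 and 36 counts) and at 0.668 and 1.73 CPM in TKO. Its fold change was -1.91 ± 0.46 SE on the log2 scale in Tet2-/- (adjusted p = 0.028) and -1.32 ± 0.45 SE in TKO (adjusted p = 0.087), of which the first passed. Taf7l was at 1.21, 2.80 and 1.94 CPM in the same WT clones, at 0.299 and 0.526 CPM in Tet2-/- (7 and 18 counts) and at 0.585 and 1.32 CPM in TKO. Its fold change in Tet2-/- was -2.23 ± 0.44 SE (adjusted p = 0.015), which passed, while the TKO value of -1.06 ± 0.40 SE (adjusted p = 0.12) did not pass. The clone TKO_8.12 lay within the WT range for both genes. In Tet1-/- Slc25a31 was at 2.43 to 3.22 CPM and Taf7l at 2.07 to 2.58 CPM, and in DKO Slc25a31 was at 3.73 and 3.30 CPM and Taf7l at 2.13 and 1.92 CPM. Pgk2 was at 0 in 21 of 24 libraries and at 1 count in 1 DKO library at D0 and both DKO libraries at D6, which is under the limit of detection, so it was not tested and no fold is given.

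Counted together, 4 of the 5 members tested were lower in Tet2-/- at D0 by edgeR's quasi-likelihood test (adjusted p under 0.05 and more than 2-fold), where 2.37% of all 14456 genes were lower. Among them Taf7l, with 7 counts in 1 Tet2-/- clone, under the minimum count of 10 of the filter on low counts, was kept through groups in which it was higher, so its call is a description, and without it 3 of 4 were lower. In TKO, of the 3 members not chosen by this comparison, 1 was lower, in a test that uses the libraries that chose Rpl39l and D1Pas1, where 2.12% of genes were lower. In Tet1-/- 0 of 5 passed (1 at an unadjusted p under 0.05, 0 by DESeq2), with 0.00692% of genes called, and in DKO 0 of 3 passed (0 at an unadjusted p under 0.05, 0 by DESeq2), with 0.0346% of genes called. The median log2 fold change of the tested members was -1.72 in Tet2-/- and -1.32 in TKO, against -0.01 and 0.02 over all genes. The Tet2-/- calls need both clones: without clone Tet2_KO_3.10 or without clone Tet2_KO_3.11 none of the 4 passed (adjusted p from 0.080 to 0.20), the remaining clone being assumed to vary like the other groups. Slc25a31 and Taf7l also did not pass without WT clone O4.2 (adjusted p = 0.092 and 0.054) or O4.13 (adjusted p = 0.094 and 0.052). Without clone TKO_8.12 they passed in TKO, at -2.15 (adjusted p = 0.014) and -1.75 (adjusted p = 0.025). Slc25a31 in TKO also passed without WT clone O4.1 (adjusted p = 0.040) and with DESeq2 (adjusted p = 0.036).

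**Figure D2:**
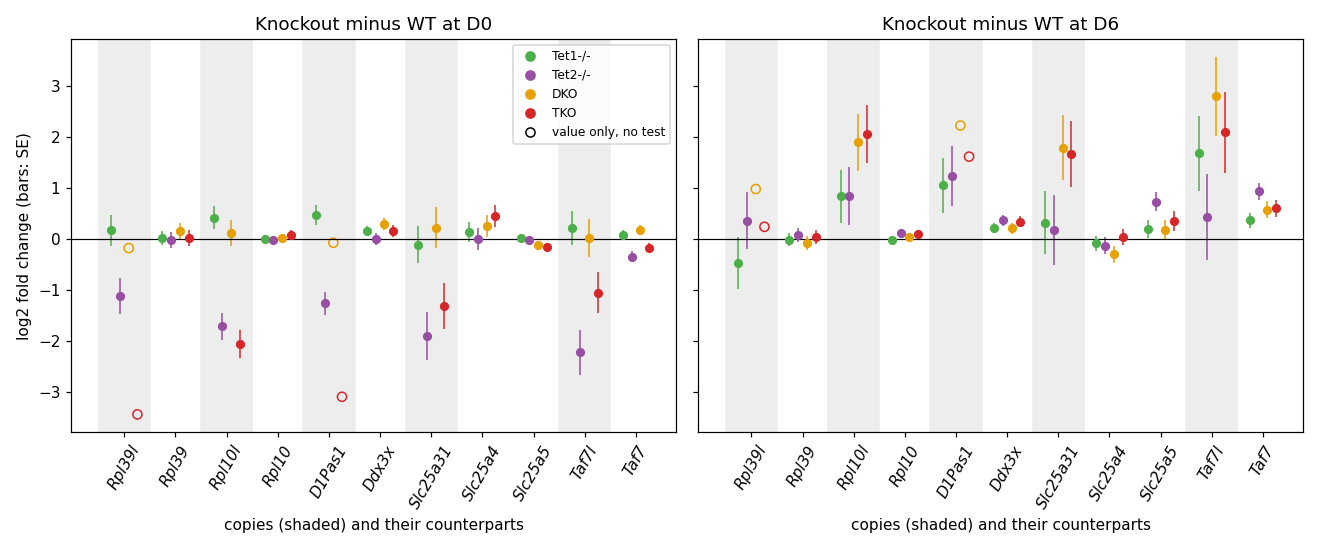
Log2 fold changes (vertical axis, bars are SE of the fit) of 5 copies (shaded) and their counterparts in each knockout against WT at D0 (left) and D6 (right), with hollow circles for values given without a test. At D0 the tested copies lie between -2.23 (Taf7l in Tet2-/-) and 0.46 (D1Pas1 in Tet1-/-), and the counterparts drawn, which leave out Pgk1, between -0.35 and 0.45.

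Of the counterparts, 0 of 7 were called at D0 in any knockout by edgeR (4 of 28 pairs of gene and knockout at an unadjusted p under 0.05, 0 by DESeq2), and their log2 fold changes ran from -0.62 (Pgk1 in DKO) to 0.45 (Slc25a4 in TKO). Taf7 in Tet2-/-, at -0.35 (adjusted p = 0.049), was under the 2-fold limit. Rpl39 was at 210 to 214 CPM in WT, 198 and 225 CPM in Tet2-/-, and 268 and 163 CPM in clones TKO_8.4 and TKO_8.12. Rpl10 was at 616 to 711 CPM in WT and at 662 and 709 CPM in TKO. Ddx3x was at 988 to 1067 CPM in WT and at 1103 and 1195 CPM in TKO. Per kb, Rpl39l was thus 36.2% to 48.2% of Rpl39 in the WT clones and 4.75% and 1.92% in clones TKO_8.4 and TKO_8.12, and D1Pas1 was 8.37% to 10.8% of Ddx3x in WT and 1.40% and 0.615% in the same TKO clones.

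At D6 the fitted values of Rpl10l, Taf7l and Slc25a31 in DKO and TKO were above WT rather than below it, and did not pass. Rpl10l was at 2.37, 7.11 and 3.47 CPM in WT clones O4.1, O4.2 and O4.13, at 3.32 to 11.4 CPM in Tet1-/-, at 6.80 and 8.89 CPM in Tet2-/-, at 18.2 and 13.98 CPM in DKO, and at 26.3 and 9.24 CPM in TKO. Both DKO clones and both TKO clones exceeded every WT clone. Its fold change was 1.89 ± 0.57 SE on the log2 scale in DKO (adjusted p = 0.22) and 2.05 ± 0.57 SE in TKO (adjusted p = 0.086). Taf7l was at 0.0504, 1.12 and 0.382 CPM in the same WT clones, at 3.91 and 3.58 CPM in DKO and at 3.04 and 1.45 CPM in TKO. Its fold change was 2.79 ± 0.78 SE in DKO (adjusted p = 0.21) and 2.08 ± 0.79 SE in TKO (adjusted p = 0.15). Slc25a31 was at 0.0504, 0.617 and 0.509 CPM in WT, 1.18 and 1.66 CPM in DKO, and 1.48 and 1.10 CPM in TKO. Its fold change was 1.78 ± 0.63 SE in DKO (adjusted p = 0.26) and 1.66 ± 0.64 SE in TKO (adjusted p = 0.16). The folds of Taf7l and Slc25a31 are descriptions, since WT clone O4.1 held 1 count of each, under the minimum count of the filter. Both DKO clones and both TKO clones also exceeded every WT clone for Taf7l, and for Slc25a31. The share of all genes that separate in this way was not counted, so for Rpl10l, Taf7l and Slc25a31 this is a description. The Tet1-/- clones held 0.500 to 2.53 CPM of Taf7l and 0.214 to 0.821 CPM of Slc25a31, and the Tet2-/- clones 0.864 and 0.593 CPM of Taf7l and 0.547 and 0.384 CPM of Slc25a31, ranges that overlap those of WT.

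D1Pas1 was at 1.56 to 3.05 CPM in D6 WT, 11.8 and 10.3 CPM in DKO, and 11.6 and 2.5 CPM in clones TKO_8.4 and TKO_8.12, so the TKO clones differed from each other and only TKO_8.4 was above WT. The TKO value of D1Pas1 was 1.61 on the log2 scale, 0.07 without TKO_8.4 and 2.31 without TKO_8.12, and the DKO value was 2.22. In Tet1-/- D1Pas1 was at 2.18 to 7.23 CPM and in Tet2-/- at 5.56 and 5.75 CPM. Rpl39l was at 6.05, 15.9 and 6.85 CPM in WT, 5.14 to 8.47 CPM in Tet1-/-, 10.1 and 14.9 CPM in Tet2-/-, 16.9 and 20.8 CPM in DKO, and 18.2 and 3.94 CPM in the TKO clones. Over the 16 pairs of member and knockout that were tested at D6, 0 passed with edgeR, 7 had an unadjusted p under 0.05, and DESeq2 called 3 (Rpl10l in DKO and TKO, Taf7l in DKO), where it called 185 of 15435 genes in DKO and 470 in TKO. Without WT clone O4.2, whose pluripotent marker sum was the highest of the D6 WT clones, Rpl10l (2.62, adjusted p = 0.028) and Taf7l (3.24, adjusted p = 0.040) passed in TKO. Rpl10l also passed in TKO without clone Tet1_KO_2.2 (adjusted p = 0.048). The passes of Taf7l, with DESeq2 and without WT clone O4.2, are descriptions, since WT clones O4.1 and O4.13 held 1 and 12 counts of it. The shares of all genes called at D6 were 0% in Tet1-/-, DKO and TKO and 14.3% in Tet2-/-. The counterparts had 0 of 7 called in each knockout at D6 (8 of 28 pairs at an unadjusted p under 0.05, 0 by DESeq2), with the highest values for Taf7 in Tet2-/- (0.92, adjusted p = 0.0058) and Slc25a5 in Tet2-/- (0.73, adjusted p = 0.020), below the 2-fold limit.

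In WT the copies were lower after 6 days without LIF. From D0 to D6, Rpl10l fell by 5.21 ± 0.47 SE on the log2 scale (adjusted p = 2.9e-08), D1Pas1 fell by 4.82 ± 0.46 SE (adjusted p = 5.8e-08) and Rpl39l fell by 3.55 ± 0.48 SE (adjusted p = 3.7e-06). Slc25a31 fell by 2.84 ± 0.53 SE (adjusted p = 0.00013) and Taf7l fell by 1.87 ± 0.61 SE (adjusted p = 0.012). Rpl10l, D1Pas1 and Rpl39l were thus lower at D6 in WT, where 13.3% of genes were lower. The calls of Slc25a31 and Taf7l are descriptions, since WT clone O4.1 held 1 count of each at D6, under the minimum count of the filter. The call of Taf7l was lost without WT clone O4.2 at D0 (adjusted p = 0.056) or O4.13 at D6 (adjusted p = 0.055).

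In Tet1-/-, 4 of 5 were lower (11.2% of genes lower), and Taf7l (-0.42, adjusted p = 0.51) did not pass. Of the 4, Slc25a31 held 6 counts in clone Tet1_KO_2.2 at D6, under the minimum count of the filter, so its call is a description. In Tet2-/-, 3 of 5 were lower (6.44% of genes lower), with Rpl39l at -2.08 ± 0.55 SE (adjusted p = 0.0060), Rpl10l at -2.68 ± 0.51 SE (adjusted p = 0.00046) and D1Pas1 at -2.31 ± 0.50 SE (adjusted p = 0.0012). The Rpl39l call in Tet2-/- was lost without clone Tet2_KO_3.10 at D6 (-1.83, adjusted p = 0.078). In DKO, of the 3 members tested, Rpl10l was lower (-3.46 ± 0.52 SE, adjusted p = 2.1e-05) where 10.6% of genes were lower, and Rpl39l and D1Pas1 were at -2.41 and -2.53, given without a test. Slc25a31 in DKO did not pass (-1.30, adjusted p = 0.058) but passed with clone as a block (-1.31, adjusted p = 0.026) and without any of 5 libraries of other genotypes (adjusted p from 0.037 to 0.0497). In TKO 0 of 3 passed (1 at an unadjusted p under 0.05, 0 by DESeq2), where 8.63% of genes were lower.

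Within the TKO the same clone can be followed across the days. In clone TKO_8.4 Rpl39l was at 16.7 CPM at D0 and 18.2 CPM at D6, Rpl10l at 24.2 and 26.3 CPM, D1Pas1 at 10.5 and 11.6 CPM, Slc25a31 at 0.668 and 1.48 CPM, and Taf7l at 0.585 and 3.04 CPM. In this clone Rpl39l, Rpl10l and D1Pas1 were thus close to their D0 values. Slc25a31 and Taf7l were higher at D6, going from 16 and 14 counts to 48 and 99. The share of all genes that rose in this clone was not counted. In clone TKO_8.12 Rpl39l went from 4.12 to 3.94 CPM, Rpl10l from 53.7 to 9.24 CPM, D1Pas1 from 5.03 to 2.5 CPM, Slc25a31 from 1.73 to 1.10 CPM and Taf7l from 1.32 to 1.45 CPM. The fitted TKO differences of Rpl39l (0.12), D1Pas1 (-0.10) and Slc25a31 (0.11) were small beside the effect of scaling. In this comparison the median gene was at 0.19 with library totals and at 0.01 with TMM. Rpl10l had -1.11 ± 0.48 SE (adjusted p = 0.062). It passed without clone TKO_8.4, at -1.56 (adjusted p = 0.021) when left out at D0 and -2.08 (adjusted p = 0.0084) when left out at D6, and also without WT clone O4.2 (adjusted p = 0.043) or Tet1_KO_2.2 (adjusted p = 0.037) at D6.

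The difference between days was itself tested, as the knockout effect at D6 minus that at D0. Rpl10l had 2.54 ± 0.65 SE on the log2 scale in Tet2-/- (adjusted p = 0.016) and 4.1 ± 0.66 SE in TKO (adjusted p = 0.0037). D1Pas1 had 2.51 ± 0.65 SE in Tet2-/- (adjusted p = 0.016), and Slc25a31 had 2.95 ± 0.81 SE in TKO (adjusted p = 0.037), a description for the same reason, as its D6 WT clones held 1, 16 and 17 counts. With it these were 2 of 5 tested in Tet2-/- (3.54% of genes higher) and 2 of 3 in TKO (1.84% of genes higher). In Tet1-/- 0 of 5 and in DKO 0 of 3 passed, where 0% of genes were called in each. Of these, 0 and 2 had an unadjusted p under 0.05, and DESeq2 called 0 and 0. DESeq2 called 6 of the 16 tested pairs, among them Taf7l in Tet2-/- (adjusted p = 0.031) and TKO (adjusted p = 0.015), and with no filter Taf7l passed in TKO (adjusted p = 0.044). With clone as a block, 8 of the 16 passed rather than 4, while the genes called higher over all 15639 went from 554 to 671 in Tet2-/- and from 288 to 427 in TKO. The added ones were Rpl39l (1.56, adjusted p = 0.024), Slc25a31 (2.26, adjusted p = 0.047) and Taf7l (2.88, adjusted p = 0.030) in Tet2-/-, and Taf7l (3.33, adjusted p = 0.021) in TKO. Those of Slc25a31 and Taf7l are descriptions, since WT clone O4.1 held 1 count of each at D6. The same holds for the passes of Taf7l with DESeq2, with no filter and without WT clone O4.2. The values of Rpl39l (3.67) and D1Pas1 (4.72) in TKO are given without a test. Leaving out 1 TKO library moved them between 2.15 and 5.02 for Rpl39l and between 3.18 and 5.41 for D1Pas1, the lowest in each case without TKO_8.4 at D6. Without WT clone O4.2 at D6, Rpl39l (2.04, adjusted p = 0.039) and Taf7l (3.79, adjusted p = 0.012) passed in Tet2-/- and Taf7l (4.26, adjusted p = 0.0073) passed in TKO. The D1Pas1 call in Tet2-/- was lost without any of the Tet2-/- libraries (adjusted p from 0.053 to 0.068). That of Rpl10l in Tet2-/- was lost without clone Tet2_KO_3.10 at D0 (adjusted p = 0.081) or clone Tet2_KO_3.11 at D6 (adjusted p = 0.070). That of Slc25a31 in TKO was lost without clone TKO_8.4 at D0 (adjusted p = 0.10) or D6 (adjusted p = 0.0998), and without WT clones O4.2 (adjusted p = 0.078) or O4.13 (0.084) at D0 and O4.1 (0.065) or O4.13 (0.066) at D6.

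Across the days Rpl39, Rpl10 and Ddx3x stayed within -0.36 and 0.26 in every genotype. Slc25a5, the main ADP/ATP carrier of dividing cells, fell in WT by 1.30 ± 0.14 SE (adjusted p = 2.2e-07), and Taf7 fell by 1.45 ± 0.13 SE (adjusted p = 2.4e-08). The copy Taf7l was lower in WT too, which is a description as said above. Slc25a5 and Taf7 also passed in Tet1-/- (-1.14 and -1.18) and DKO (-1.01 and -1.06), close to the 2-fold limit. The Slc25a5 value in DKO was under that limit with 5 of the alternatives that keep all libraries. With library totals the calls of Slc25a5 and Taf7 in Tet1-/- and DKO and that of Slc25a4 in TKO (-0.96) were lost. With clone as a block Slc25a5 in Tet1-/- was at -0.94 and did not pass. Slc25a4, the carrier of heart and muscle, was past the 2-fold limit in DKO (-1.28) and TKO (-1.14, or -0.53 without clone TKO_8.12 at D0 and -0.99 without clone TKO_8.4 at D6), and under it in WT (-0.70, adjusted p = 0.0030), Tet1-/- (-0.94, adjusted p = 0.00029) and Tet2-/- (-0.83, adjusted p = 0.0078). Pgk1 was past the limit in Tet1-/- (1.21) and DKO (1.20, or 0.90 without clone DKO_5.12 at D6), and under it in WT (0.91, adjusted p = 0.0026), TKO (0.87, adjusted p = 0.019) and Tet2-/- (0.73, adjusted p = 0.054). For neither gene did the difference between days pass in any knockout. The difference between days passed for 1 counterpart, Taf7 in Tet2-/- (1.27 ± 0.20 SE, adjusted p = 0.0019).

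Other genes of the same kinds were counted from lists. Of 24 further testis copies, 18 passed the filter at D0, and 4 of them were called lower in Tet2-/- (2.37% of all genes). These were Cyct (testis cytochrome c), Tktl2 (a transketolase copy), Cox8c (a cytochrome oxidase subunit) and Ldhc (the lactate dehydrogenase of sperm). Their WT clones held at most 2.26 CPM and their Tet2-/- clones at most 6 counts, under the minimum count of 10 of the filter, so they passed it through groups in which they were higher. This count is therefore a description, and levels are given in place of folds. Cyct was at 0.646 to 2.26 CPM in WT and at 0.0877 to 0.256 CPM in Tet2-/-, Tktl2 at 0.525 to 1.12 and 0.0427 to 0.0584 CPM, Cox8c at 0.404 to 0.907 and 0.0853 to 0.175 CPM, and Ldhc at 0.566 to 2.22 CPM and 0 counts. In TKO 1 of the 18 passed (2.12% of all genes), Cox8c, at 0.125 to 0.165 CPM. The list medians at D0 were -0.43 in Tet2-/-, -0.60 in DKO, -0.38 in TKO and -0.01 in Tet1-/-. From D0 to D6 in WT 7 of 18 were called lower (13.3% of all genes) and 2 higher, a count that is again a description, since Pdha2, Tktl2, Cox8c and Gtf2a1l among the 7 held at most 10 counts in any D6 WT clone. Psma8 (a proteasome subunit of meiotic cells, -3.31) and Rbmxl2 (an RNA-binding protein, -2.88) fell, from levels of 17.7 to 22.4 and 147 to 197 CPM. Of the 24 counterparts of these copies 0 were called at D0 in any knockout (16 of 96 pairs at an unadjusted p under 0.05, 0 by DESeq2). Of 5 ribosomal paralogs outside the members, 0 were called at D0 or D6 in any knockout (3 and 4 of 20 pairs at an unadjusted p under 0.05, 0 by DESeq2 at either day). Their median was -0.38 in Tet2-/- and 0.05 in TKO at D0, and from D0 to D6 in WT Rpl7l1 was lower (-1.40). Rpl3l was at 0.606 to 1.17 CPM in D0 WT and at most 9 counts in D6 WT, so no fold is given.

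Germline genes known to be silenced by DNA methylation were counted in the same way. Of 15, among them Taf7l and Slc25a31, 14 were tested and 5 were lower in Tet2-/- at D0 (2.37% of all genes). Beside those 2 these were Mael (a piRNA pathway protein, -2.51), Dazl (an RNA-binding protein of germ cells, -2.34) and Stk31 (-1.15). Taf7l and Slc25a31 were already counted above as members, and the call of Taf7l is a description. In TKO 1 was lower (Dazl, -1.42), against 2.12% of all genes. In WT 10 were lower at D6 (13.3% of all genes) and 1 higher (Sycp3, 1.16). Among the 10 were Tex101, with at most 11 counts in any D6 WT clone, and Taf7l and Slc25a31, with 1 count each in clone O4.1. This count is therefore a description. For the TKO difference between days 7 of 14 were higher, against 1.84% of all genes, with a median of 2.34 against -0.02 over all genes. The 7 include Slc25a31, whose call is a description. In Tet2-/- 3 of 14 were higher, against 3.54% of all genes, and in DKO and Tet1-/- 0 of 14, where 0% of genes were called. The list medians were 1.68 in Tet2-/-, 1.205 in DKO and 0.47 in Tet1-/-. Among 24 libraries, the gene whose log2(CPM + 1) was most like that of Taf7l was Mael (Pearson's r = 0.90), followed by AU022751 (0.86) and Sycp2 (0.82). The gene most like Rpl39l was D1Pas1 (0.97), that most like Rpl10l was 2700062C07Rik (0.97), that most like D1Pas1 was Ttn (0.97) and that most like Slc25a31 was D5Ertd605e (0.93). Within the 12 D0 libraries r between members ran from 0.51 (Rpl39l and Taf7l) to 0.98 (Rpl39l and D1Pas1), and within the 12 D6 libraries from 0.53 to 0.89. These r are descriptions over libraries that share genotype and day, and they include the TKO and DKO libraries by which Rpl39l and D1Pas1 were chosen, so the likeness of those genes is not independent of the choice.

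**Figure D3:**
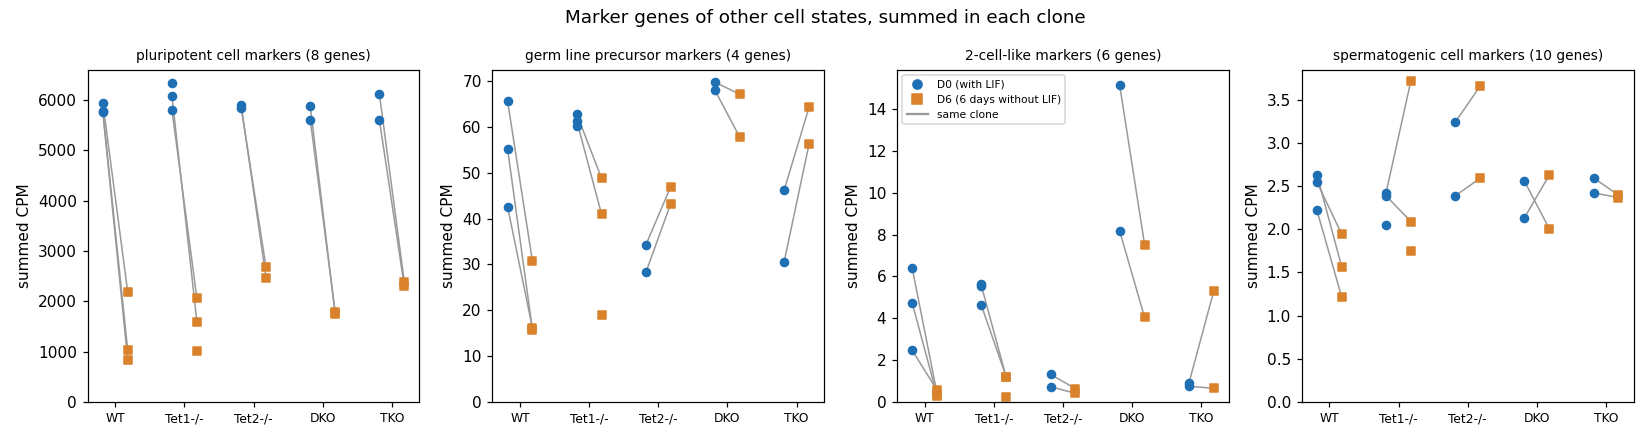
Summed CPM (vertical axis, from 0) of 8 pluripotent, 4 germ line precursor, 6 2-cell-like and 10 spermatogenic marker genes in each clone of the 5 genotypes at D0 (circles) and D6 (squares), with lines joining the same clone. At D0 the 2-cell-like sum is 0.725 to 1.32 CPM in Tet2-/- and TKO and 2.46 to 15.2 CPM in the other genotypes.

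Markers of other cell states differed between the groups too. The 6 genes of the 2-cell-like state, a rare state of ESC cultures (Zscan4c, Zscan4d, Zfp352, Tcstv1, Tcstv3 and Gm5662), summed at D0 to 2.46 to 6.39 CPM in WT, 4.62 to 5.66 in Tet1-/-, 8.17 and 15.2 in DKO, 0.725 and 1.32 in Tet2-/-, and 0.742 and 0.877 in TKO. At D6 the sum was 0.290 to 0.555 CPM in WT, 4.04 and 7.52 in DKO, and 5.29 and 0.649 in clones TKO_8.4 and TKO_8.12. At D0 the sums of the Tet2-/- and TKO clones were thus below every WT clone and those of the DKO clones above. At most 3 of the 6 genes were at 0 in any library. Single genes of this list held at most 17 counts in a Tet2-/- clone and 11 in a TKO clone at D0, so their calls are not counted. The 4 germ line precursor genes (Dazl, Ddx4, Nanos3 and Nanos2), with at most 1 at 0, summed to 42.7 to 65.8 CPM in D0 WT, 28.2 and 34.2 CPM in Tet2-/- and 30.6 and 46.2 CPM in TKO. In Tet1-/- these genes summed at D0 to 60.2 to 62.9 CPM, and in DKO to 69.85 and 68.0 CPM, above every WT clone. At D6 they summed to 15.8 to 30.7 CPM in WT, 19.0 to 48.8 CPM in Tet1-/-, 43.3 and 47.0 CPM in Tet2-/-, 57.8 and 67.1 CPM in DKO, and 56.3 and 64.3 CPM in TKO, so all Tet2-/-, DKO and TKO clones were above WT, and 2 of the 3 genes tested were higher in Tet2-/-, where 742 of 15435 genes were higher. Pluripotent markers had 0 of 8 called in each knockout at D0 (8 of 32 pairs at an unadjusted p under 0.05, 0 by DESeq2), and at D6 1 of 32 pairs was called, higher in Tet2-/- (4 by DESeq2). At D6 they summed to 835 to 2181 CPM in WT, 1002 to 2064 CPM in Tet1-/-, 1741 and 1781 CPM in DKO, and 2294 to 2678 CPM in Tet2-/- and TKO. Mesoderm and endoderm markers (6 genes) summed at D6 to 182 to 598 CPM in WT, 142 to 476 CPM in Tet1-/-, 13.4 and 25.7 CPM in Tet2-/-, 289 and 179 CPM in DKO, and 100.3 and 338 CPM in clones TKO_8.4 and TKO_8.12. The part of these states in the differences of the copies was not tested.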

How the data were processed

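Polyadenylated RNA of 24 ESC libraries, grouped by the genotype and day in their labels, was sequenced as paired reads of 38 bases, and the authors mapped the reads to mm9 with STAR 2.5.1. The authors deposited counts, whole numbers of reads per transcript named by gene symbol, without normalization or pooling. Counting of strand and of reads with several matches is not given in the sources used here, and the NEBNext Ultra kit does not mark strand, so overlapping antisense transcripts cannot be told apart. Each table has 31928 lines for 22926 symbols; the first line of a symbol was used, and each member has 1. Libraries were scaled by TMM in edgeR 4.0.16 (R 4.3.3), genes were kept by filterByExpr (minimum count 10), and quasi-likelihood models with 1 coefficient per group were fitted to D0 (14456 genes), D6 (15435) and all 24 libraries (15639). Calls needed a Benjamini-Hochberg adjusted p under 0.05 over all genes and a log2 fold change over 1 in size. Of the 6 members, 5 passed the filter in each fit. SE are the log2 fold change divided by the square root of F. The scripts were tested on simulated data.

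CPM are counts per 1000000 of the TMM-scaled library total. Totals of 18400463 to 37290208 counts limit counting error only, and the spread between clones sets the precision. Clones sequenced at both days are the same cell lines; their deviations from group means correlated at 0.081 to 0.19 over 11 clones (10 above 0.1), so a fit with clone as a block was set beside the day comparisons. Clones Tet1_KO_2.2 and Tet1_KO_2.3, seen at 1 day, carry no information in it. Named genes are the members and their counterparts, called genes of the lists (up to 5 per list and comparison) and the 3 genes most correlated with each member. The members and lists were chosen with earlier results of these data known. Promoter windows came from RefSeq (GRCm38.p6; all 6 members and 6 counterparts matched), and lengths and 38-base windows from GENCODE vM1 and mm9 (Biopython 1.88). Alternatives were DESeq2 (1.42.0), other scaling, no filter, summed lines, blocks, and leaving out each library.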

Additional observations from a re-analysis of the deposited data

Results flagged for a closer look

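The effect of a knockout differed between D0 and D6, by the edgeR interaction test, for 3 copies and 1 counterpart. Over all genes 3.54% were called higher by this test in Tet2-/- and 1.84% in TKO. The call of Slc25a31 is a description, as its D6 WT clones held 1, 16 and 17 counts. The calls of D1Pas1 and Slc25a31, and that of Rpl10l in Tet2-/-, were each lost in fits without 1 library, as given above. For Rpl10l the Tet2-/- effect at D6 minus that at D0 was 2.54 on the log2 scale and the TKO difference was 4.1. For D1Pas1 the Tet2-/- difference was 2.51, for Slc25a31 the TKO difference was 2.95, and for Taf7 the Tet2-/- difference was 1.27. In each case the value at D0 was below WT and the value at D6 above it. Groups of 2 or 3 clones were too small for the test of single outlying samples.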

How the results depend on the processing

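No named member changed direction under any alternative for the log2 fold changes over 1 in size that were compared. The 5 calls at D0 were 5 or 6 under every setting that kept all libraries and 1 to 8 when a library was left out. The 0 calls at D6 became 3 with DESeq2 and 0 to 2 without 1 library (2 without WT clone O4.2, 1 without clone Tet1_KO_2.2). The 13 calls across days were 13 or 14, and 12 to 15 without 1 library. The 4 calls of a difference between days became 8 with the replicate block by clone, 6 with DESeq2, 5 with no filter and 2 to 7 without 1 library (2 without clone Tet2_KO_3.10 at D0 or Tet2_KO_3.11 at D6, 7 without WT clone O4.2 at D6). Replicate numbers within a day are only names: 18 of 42 same-numbered pairs had correlated deviations above 0.1 (r from -0.38 to 0.31), and a replicate block within the day left 5 calls at D0 and 0 at D6. Over all genes, calls at D0 went from 1 to 50 (DESeq2) or 29 (no filter) in Tet1-/- and from 5 to 111, 79 or 17 (DESeq2, no filter, replicate block) in DKO. At D6 0 calls became 44, 185 and 470 with DESeq2 in Tet1-/-, DKO and TKO, and 93 in TKO with no filter; for the difference between days 0 became 12 in Tet1-/- and 20 in DKO with DESeq2, and 3 in DKO with the clone block. The cause of these changes was not tested. Scaling by library totals raised the median gene by 0.14 to 0.21 from D0 to D6, and changed the split of higher and lower genes from 3109 and 1752 to 3698 and 1324 in Tet1-/-, from 2904 and 1660 to 3531 and 1168 in DKO and from 2626 and 1350 to 3124 and 950 in TKO. Members at a few counts (Slc25a31, Taf7l, Pgk2) are limited by depth. The calls of Slc25a31 and Taf7l given above as descriptions are included in these counts of calls.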
